A study of Homo sapiens with 14 samples.

Results

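The miR-15/16 family and the family of miR-103 and miR-107 were followed as 7 named mature microRNAs (miRNAs) in the RNA of extracellular vesicles (EVs), the small membrane particles that cells release. The members were miR-15a-5p, miR-15b-5p, miR-16-5p, miR-195-5p and miR-497-5p of the first family and miR-103a-3p and miR-107 of the second. They were taken by name from a table of 2632 mature miRNAs, and 4 of the 7 had a count in any of the 14 libraries.

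The vesicles came from the medium of epicardial cells, the covering layer of the heart, grown from 1 human embryonic stem cell line, hES-2. All groups began as cryopreserved pro-epicardial cells of that line in the same supplemented StemPro medium, and the labels call the NT source pro-epicardial, the SB source mature epicardial and the other sources stimulated epicardial cells. NT cells had no additive (3 libraries, replicates 1, 3 and 4). SB cells had 6 µM SB-431542, which blocks the TGF-β type I receptor, over 8 days (4 libraries). TGFb cells had 5 ng/ml TGF-β1 over 4 days and no additive over the remaining 4 days (4 libraries). FGF cells had 10 ng/ml basic FGF over 8 days (3 libraries, replicates 2, 3 and 4). From day 4 the medium had been passed through a 100 kDa filter, and it was harvested on days 6 and 8. Vesicles were then precipitated with polyethylene glycol. Nothing in the labels says that replicates were separate cultures, so p-values measure the spread between these libraries, which may be technical.

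A miRNA guides the Argonaute silencing complex to messenger RNAs mainly through its seed, the bases near its 5′ end that pair with the target. The miR-15/16 family is known for holding back the cell cycle and survival through targets such as cyclins D1 and E1 and BCL2, and in the mouse heart its member miR-195 limits the division of heart muscle cells after birth. miR-103 and miR-107 lie within genes for pantothenate kinases, the first enzymes of coenzyme A synthesis, and are known from work on insulin sensitivity and on Dicer. miR-16-5p and miR-103a-3p are also common reference miRNAs for serum and vesicle measurements.

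The mature sequences are shown because the seed defines both families and because near-identical members bear on how counts are split between them. They are from RefSeq (GRCh38.p14), which held all 7 members, and are written 5′ to 3′ with bases 2 to 8, the seed, in capitals.
miR-16-5p: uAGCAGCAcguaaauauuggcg
miR-15a-5p: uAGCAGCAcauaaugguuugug
miR-15b-5p: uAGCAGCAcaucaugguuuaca
miR-195-5p: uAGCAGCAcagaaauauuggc
miR-497-5p: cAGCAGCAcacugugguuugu
miR-103a-3p: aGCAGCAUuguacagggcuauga
miR-107: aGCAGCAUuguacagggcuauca
miR-503-5p: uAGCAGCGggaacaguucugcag
miR-424-5p: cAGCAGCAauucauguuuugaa

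The 5 members of the miR-15/16 group share 1 seed, which miR-424-5p and miR-6838-5p also hold, and miR-103a-3p and miR-107 share the other. Bases 1 to 7 of miR-103a-3p are the same letters as bases 2 to 8 of miR-16-5p, so the families differ by a shift of 1 base. Counted from the 5′ end, miR-103a-3p and miR-107 differ at 1 of 23 bases (G22C). miR-16-5p and miR-195-5p differ at 2 of the 21 bases both have (G10A and U11G), and miR-15a-5p and miR-15b-5p at 4 of 22. miR-503-5p, a relative outside the 7 members, departs from miR-16-5p at the last seed base (A8G). The rule by which the authors assigned reads to near-identical members is not given in the sources used here, so the splits of miR-103a-3p from miR-107 and of miR-16-5p from miR-195-5p are uncertain.

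miR-16-5p is made from 2 hairpins, each beside a miR-15 hairpin. MIR15A and MIR16-1 lie 57 bases apart on chromosome 13 (50048973 to 50049201, minus strand, GRCh38) within the non-coding gene DLEU2, where MIR16-1 is intronic and MIR15A overlaps an exon of a transcript. MIR15B and MIR16-2 lie 59 bases apart on chromosome 3 (160404588 to 160404825, plus strand) in an intron of SMC4, a condensin subunit, and an antisense gene model also spans them. MIR195 and MIR497 form a pair on chromosome 17 (7017615 to 7018022, minus strand) in exons of MIR497HG. miR-103a-3p comes from MIR103A1 (chromosome 5, 168560896 to 168560973, minus strand; intronic in PANK3) and MIR103A2 (chromosome 20, 3917494 to 3917571, plus strand, an intron of PANK2). MIR107 (chromosome 10, 89592747 to 89592827) is on the minus strand, within an intron of PANK1. Counts of miR-16-5p and miR-103a-3p are sums over both of their genes.

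The libraries were shallow, with totals from 115 to 14862 raw counts and 47091 in all. NT held the deepest libraries, and the libraries numbered 2 held only 115 to 231. Stem cell miRNAs (the miR-302, miR-367 and miR-371 to miR-373 group) had 5 counts in all, from 2 of 8 listed. miR-16-5p is abundant in red blood cells, and the blood miRNAs miR-451a, miR-144-3p and miR-144-5p were at 0 in all 14 libraries. miR-486-5p and miR-223-3p had 9 counts between them, and the summed share of the 5 listed blood miRNAs ran from 0% to 0.0202% in NT, to 0.0523% in SB and to 0.870% in FGF (1 of 115 counts), and was 0% in each TGFb library.

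The 7 members took 673 counts, 1.43% of all counts, and 2 of them carried nearly all of these. miR-16-5p had 390 counts in 13 of 14 libraries and miR-103a-3p had 261 counts in 12 of 14. miR-15b-5p had 20 counts in 7 libraries and miR-107 had 2 counts, both in NT replicate 1. miR-15a-5p, miR-195-5p and miR-497-5p had a count of 0 in every library. Over all 47091 counts a count of 0 allows a share of up to 0.00637%, and in NT replicate 1, the deepest library, up to 0.0202%. These limits, like the intervals below, cover counting error only. Of 8 other arms of the members' hairpins, 1 was seen, miR-15b-3p, with 1 count.

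**Figure D1:**
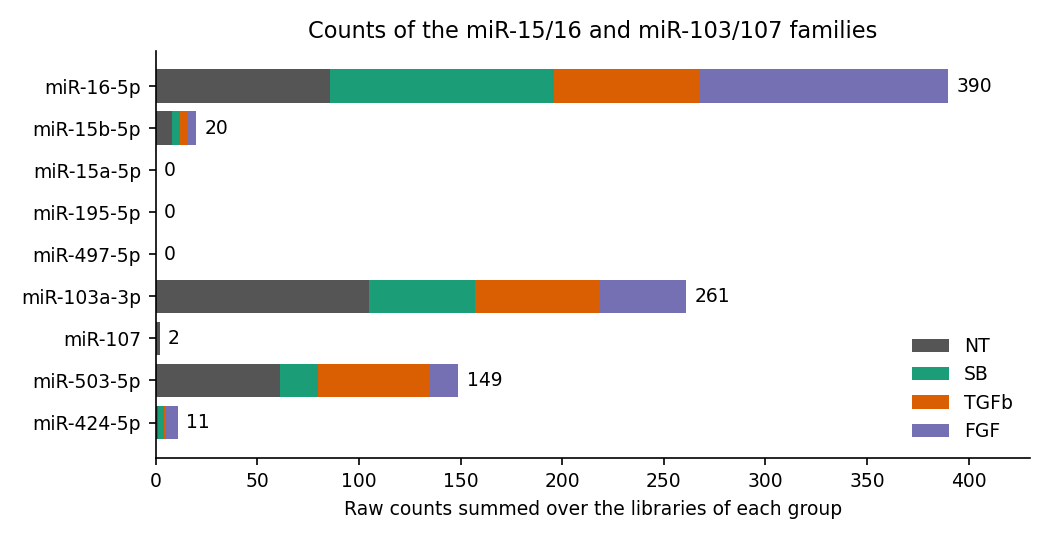
Raw counts (horizontal axis) of the 7 members and of the related miR-503-5p and miR-424-5p, summed over the libraries of each group (colours) with the sum over 14 libraries beside each bar. miR-16-5p (390) and miR-103a-3p (261) carry most counts, and 3 members are at 0.

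The share of miR-16-5p among a library's counts was, on average, lower in NT and TGFb than in SB and FGF, with groups that overlapped. In NT it was 0.141% (21 of 14862 counts), 0.497% (47 of 9462) and 1.78% (18 of 1010) in replicates 1, 3 and 4. In TGFb it was 0.494%, 0.866%, 0.321% and 1.41% in replicates 1 to 4, on 7, 2, 24 and 39 counts. The TGFb values thus lay within the range of NT. In SB it was 2.61%, 0.559%, 1.46% and 3.42% in replicates 1 to 4, on 9, 1, 56 and 44 counts. In FGF it was 0% (0 of 115), 2.62% (85 of 3241) and 4.26% (37 of 868) in replicates 2 to 4. The 0 in FGF replicate 2 allows a share of up to 2.61%, so this library does not set the FGF level apart from that of any group. Low shares were held by the deepest libraries, NT replicates 1 and 3 and TGFb replicate 3 (7478 counts), so group and depth cannot be told apart fully. Shallower libraries were low as well, such as TGFb replicate 1 (1418 counts) and SB replicate 2 (179 counts).

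The mean share of miR-16-5p was 2.30% ± 2.15 (SD, n = 3) in FGF, 2.01% ± 1.26 (n = 4) in SB, 0.807% ± 0.863 (n = 3) in NT and 0.772% ± 0.481 (n = 4) in TGFb. In this order, FGF and SB did not differ beyond their spread, nor did NT and TGFb, and the step from SB to NT was smaller than the SD within SB. By rank within a library, miR-16-5p stood at place 3 in FGF replicate 4, place 4 in SB replicate 4 and place 52 in NT replicate 1. A share can move with the kinds of vesicles released, with the miRNA in each vesicle or with the counts of the other miRNAs in the total. These cannot be told apart here.

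**Figure D2:**
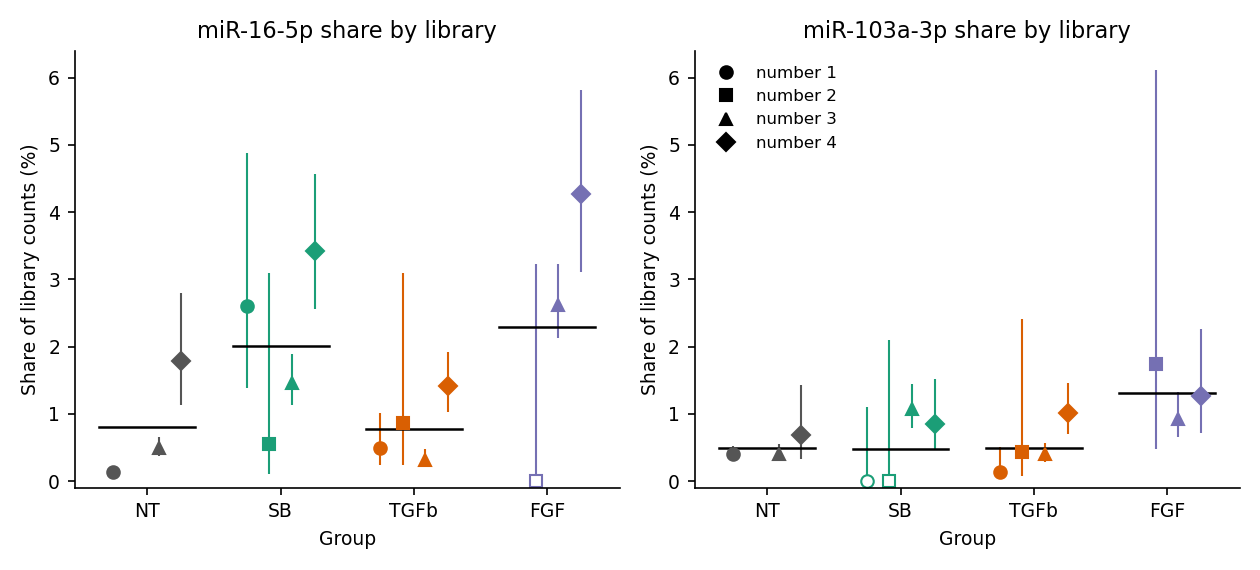
Share of library counts (%, vertical axis) of miR-16-5p (left) and miR-103a-3p (right) in each library, by group, with 95% Wilson intervals; marker shapes give the replicate number, open markers a count of 0 and black lines the group mean. miR-16-5p ranges from 0.141% to 1.78% in NT and reaches 4.26% in FGF, while miR-103a-3p stays at or below 1.74%.

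Across all tested miRNAs, edgeR's quasi-likelihood test with Benjamini-Hochberg adjustment called neither of the 2 members it could test. Of the 2632 miRNAs, 47 passed the filter on low counts, and among the members only miR-16-5p and miR-103a-3p did. Over the 4 groups, 0% of the 47 were called (threshold 0.05). In this fit, without the replicate number, an unadjusted p under 0.05 was seen for 5 of them, and neither member was among these. miR-16-5p had an adjusted p of 0.526 and miR-103a-3p one of 0.952.

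Against NT, the log2 fold change of miR-16-5p was 1.44 (SE 0.88, edgeR adjusted p = 0.441) in SB and 1.58 (SE 0.92, edgeR adjusted p = 0.320) in FGF. In each of these comparisons 2.13% of the 47 miRNAs were called, 1 miRNA that is no member, and the median log2 fold change of all 47 was −0.04 in SB and −0.00 in FGF. In TGFb, where 0% were called, miR-16-5p differed from NT by 0.24 (SE 0.87, edgeR adjusted p = 0.955). The size of the SB and FGF values moved with single libraries. Without NT replicate 4, where miR-16-5p was highest in NT, they were 2.45 and 2.61, with edgeR adjusted p of 0.0701 and 0.0628. That fit moved many miRNAs: 9 of 53 tested were called in SB and 8 of 53 in FGF against NT, miR-16-5p not among them. The median log2 fold change of the 53 was 0.41 in SB and 0.42 in FGF, so the rise of miR-16-5p was at least in part shared by other miRNAs. Without NT replicate 1 the SB and FGF values were 0.67 and 0.97, and without FGF replicate 4 the FGF value was 0.92. With the log10 library total as a covariate, the FGF value was 1.57 (SE 0.94, edgeR adjusted p = 0.503). Over the 9 alternatives other than leaving out 1 library, SB ran from 1.16 to 1.88 and FGF from 1.23 to 1.83.

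Between the treated groups, miR-16-5p was lower in TGFb than in SB by a log2 fold change of −1.20 (SE 0.81, edgeR adjusted p = 0.787) and than in FGF by −1.33 (SE 0.85, edgeR adjusted p = 0.609). The first value was −0.75 without SB replicate 4 and −1.87 without TGFb replicate 4, and the second was −0.72 without FGF replicate 4. FGF differed from SB by 0.13 (SE 0.85, edgeR adjusted p = 0.964). None of the 47 miRNAs (0%) was called in these 3 comparisons. Between the groups of these comparisons, 4, 7 and 3 of the 47 had an unadjusted p under 0.05 in the order given, without miR-16-5p.

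Within replicate numbers, SB lay above NT in 3 of 3 shared numbers and FGF above NT in 2 of 2. TGFb lay below SB in 3 of 4 numbers and below FGF in 2 of 3, and against NT it was above in 1 of 3. The exceptions to the order of SB and FGF above TGFb were both in number 2, where the libraries held 115 to 231 counts. The share of miR-16-5p was highest in replicate 4 in each of the 4 groups. With the replicate number in the edgeR fit the SB and FGF values against NT were 1.88 (SE 0.71, adjusted p = 0.171) and 1.83 (SE 0.73, adjusted p = 0.116), with unadjusted p of 0.0133 and 0.0185. That fit called 8.51% of the 47 miRNAs over all groups and neither member in any comparison. Over the 4 groups its edgeR adjusted p was 0.219 for miR-16-5p (unadjusted 0.0326) and 0.958 for miR-103a-3p (unadjusted 0.888). An unadjusted p under 0.05 over the 4 groups was seen for 7 of the 47, with miR-16-5p among them. Against NT, it called 2.13% for SB, 4.26% for FGF and 0% for TGFb. With TGFb as the first group, 6.38% were called against SB and 4.26% against FGF, and for FGF with SB the share was 2.13%.

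**Figure D3:**
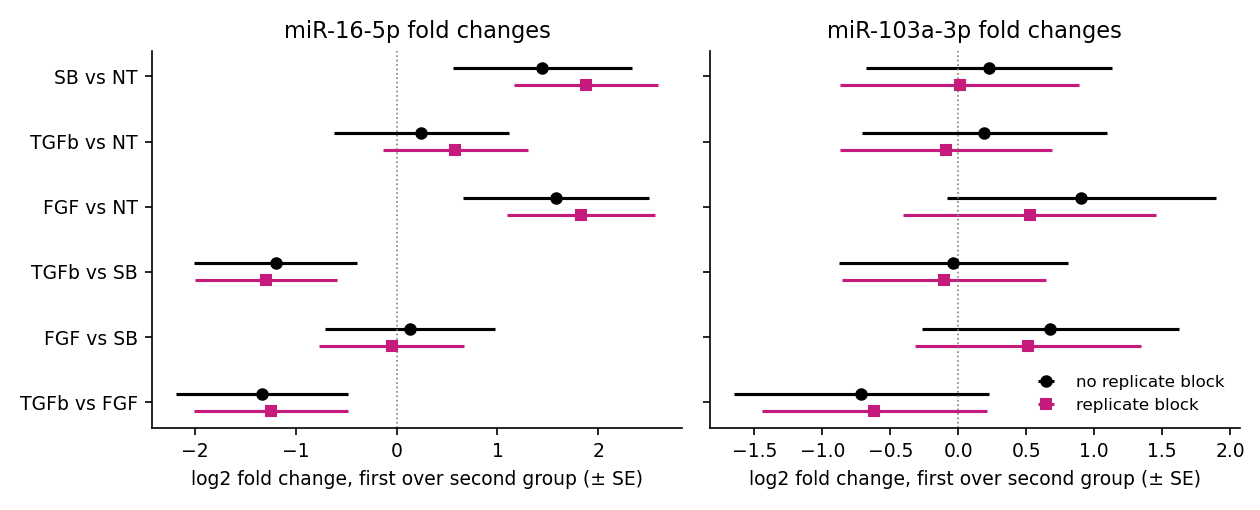
edgeR log2 fold changes (horizontal axis, first over second group, bars ± SE) of miR-16-5p (left) and miR-103a-3p (right) in the 6 pairwise comparisons, without (black) and with (pink) the replicate number in the fit. The miR-16-5p values of SB and FGF against NT lie at 1.44 and 1.58 without it, and no adjusted p passed 0.05.

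The share of miR-103a-3p was highest in FGF and close to equal in the means of the other groups. In NT it was 0.404%, 0.402% and 0.693% in replicates 1, 3 and 4, on 60, 38 and 7 counts. In TGFb it was 0.141%, 0.433%, 0.401% and 1.01% in replicates 1 to 4. In SB it was 0% in replicates 1 and 2, which allow up to 0.870% and 1.68%, and 1.07% and 0.855% in replicates 3 and 4. The SB zeros therefore fell in the shallow libraries. In FGF it was 1.74% (2 of 115 counts), 0.926% and 1.27% in replicates 2 to 4.

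The mean share of miR-103a-3p was 1.31% ± 0.408 (SD, n = 3) in FGF, 0.499% ± 0.168 (n = 3) in NT, 0.496% ± 0.367 (n = 4) in TGFb and 0.482% ± 0.563 (n = 4) in SB. All FGF libraries lay above all NT libraries, as in 8.51% of the 47 tested miRNAs (17% with either group higher). The edgeR test did not call this difference (log2 fold change 0.91, SE 0.99, adjusted p = 0.755). The last 3 groups in this order did not differ beyond their spread, and the adjusted p of the other 5 comparisons ran from 0.888 to 0.994.

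miR-16-5p was then set against its cluster partners, since a ratio of counts within a library does not depend on the library total unless a count is 0. miR-15a-5p had no count, so the partner of miR-16-5p was miR-15b-5p alone. miR-16-5p exceeded miR-15a-5p plus miR-15b-5p in 13 of 14 libraries, and in FGF replicate 2 all were at 0. The mean log2 ratio, with 0.5 added to both counts, was 3.62 ± 1.61 (SD, n = 14), and the summed counts of 390 and 20 stood at 19.5 to 1. In the 7 libraries where miR-15b-5p was at 0 the ratio restates the count of miR-16-5p, which moves with depth, and could not fall below 1. Among them, the log2 value was 0, 1.58 and 2.32 in replicate 2 of FGF, SB and TGFb. In the others it ran from 3.91 (TGFb replicate 1) to 6.23 (FGF replicate 4). The direction of the ratio was fixed in these libraries, so no test against equal counts is given. In the 7 where miR-15b-5p had a count miR-16-5p was higher in each. miR-15b-5p reached 4 counts in FGF replicate 3, against 85 of miR-16-5p, and 7 counts in NT replicate 3, against 47. Those ratios were 21.3 and 6.71. The partners differ in 8 of 22 bases, so the ratio also carries any difference in how well each is captured by the library kit, which was not tested.

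No difference between groups was found for the ratio of miR-16-5p to its cluster partners. Its mean log2 value was 3.90 ± 1.27 (SD) over the 3 NT libraries and 3.49 ± 3.18 over the 3 FGF libraries. It was 3.68 ± 1.45 over the 4 SB and 3.44 ± 1.08 over the 4 TGFb libraries. In the 6 comparisons the differences ran from −0.47 to −0.05, with two-sided exact permutation p from 0.6 to 1 and adjusted p of 1. The smallest p these designs allow is 0.0286, or 0.1 for FGF against NT. With 7 libraries at 0 for miR-15b-5p, the pseudocount sets much of each value, and a difference was not detectable at this depth.

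In the second family miR-103a-3p had 261 counts and miR-107 had 2, or 130.5 to 1 in sum. miR-103a-3p exceeded miR-107 in 12 of 14 libraries and both were at 0 in the others, SB replicates 1 and 2. As miR-107 was at 0 in 13 libraries, its ratio in each of them restates the count of miR-103a-3p, and no test is given. In NT replicate 1, which held both counts of miR-107, miR-103a-3p had 60. Reads of either miRNA that end before base 22 cannot be assigned, so this ratio also rests on the authors' rule for such reads.

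Of the 5 related miRNAs listed, miR-503-5p and miR-424-5p had counts, and miR-646, miR-6838-5p and miR-103b had 0. miR-424 and miR-503 form a cluster on the X chromosome (134546328 to 134546711, minus strand, within MIR503HG) and are known as miRNAs that rise when cells leave the cycle. miR-503-5p had 149 counts in 9 libraries, with a mean share (± SD) of 0.517% ± 0.509 over the NT libraries, 0.349% ± 0.286 over TGFb, 0.202% ± 0.238 over SB and 0.144% ± 0.249 over FGF. miR-424-5p had 11 counts in 4 libraries, 6 of them in FGF replicate 3. Both fell under the filter on low counts and were not tested in the edgeR fit above. With no filter, none of the 6 comparisons called either at an edgeR adjusted p of 0.05. The other arm of that pair, miR-424-3p, had 17 counts, and miR-503-3p had 16 (both named after their values were seen).

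The balance of miR-16-5p and miR-503-5p was uneven across groups. This pair was chosen after its values were seen, so it is given as a description with no test. How many other pairs of miRNAs set the groups as far apart was not examined. In NT the ratio of miR-16-5p to miR-503-5p counts was 1.24 (21 to 17), 1.42 (47 to 33) and 1.64 (18 to 11) in replicates 1, 3 and 4. In TGFb it was 1.75 (7 to 4), 0.750 (24 to 32) and 2.05 (39 to 19) in replicates 1, 3 and 4. These 6 libraries thus lay between 0.750 and 2.05. In SB replicates 3 and 4 it was 4.31 (56 to 13) and 7.33 (44 to 6), and in FGF replicate 3 it was 6.07 (85 to 14). FGF replicate 4 held 37 counts of miR-16-5p and 0 of miR-503-5p, a ratio of 12.3 if the 0 is set to 3 counts. SB replicate 1 held 9 and 0, a ratio of 3 in the same way. Neither value is a lower limit, as both leave out the counting error of miR-16-5p. As the share of miR-16-5p in the pair, the Wilson interval began at 90.6% in FGF replicate 4 and at 70.1% in SB replicate 1.

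Only 3 of the 7 SB and FGF libraries had a count of both. As the share of miR-16-5p in the pair, the 95% Wilson intervals of these 3 began at 70.4% at the lowest, and those of the 6 NT and TGFb libraries ended at 84.8% at the highest, so intervals overlapped. SB lay above NT and TGFb within numbers 3 and 4. In number 1 the SB library had no count of miR-503-5p. The number 2 libraries held 0 to 2 counts of miR-16-5p and 0 of miR-503-5p and give no ratio. With the groups joined in this way, also after their values were seen, miR-16-5p stood to miR-503-5p at 1.36 to 1 in NT and TGFb (sums of 158 and 116 counts) and 7.03 to 1 in SB and FGF (232 and 33). In the authors' adjusted table the ratios were 1.16 to 2.43 in NT and TGFb and 4.25 to 10.6 in SB and FGF. These values come from the same libraries and are no independent evidence.

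**Figure D4:**
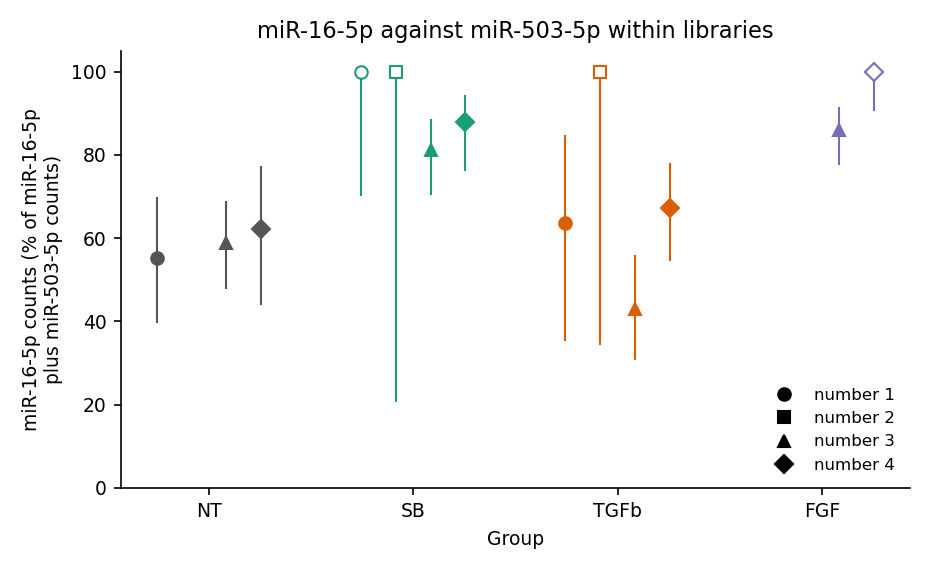
Counts of miR-16-5p as a percentage of miR-16-5p plus miR-503-5p (vertical axis) in each library by group, with 95% Wilson intervals; marker shapes give the replicate number, open markers a miR-503-5p count of 0, and FGF replicate 2 has neither. NT lies between 55.3% and 62.1%, and the filled SB and FGF markers at 81.2% or above.

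miR-16-5p and miR-103a-3p, both used as references, did not keep a fixed ratio to each other. In libraries with counts of both, their ratio ran from 0.350 in NT replicate 1 (21 to 60) to 4.00 in SB replicate 4 (44 to 11). Summed by group, it was 0.819 in NT, 1.18 in TGFb, 2.12 in SB and 2.84 in FGF. These sums weigh the deep libraries most. Per library, with 0.5 added to both counts, the mean log2 ratio was 0.038 ± 1.42 (SD) over the NT, 0.62 ± 0.78 over the TGFb, 2.06 ± 1.60 over the SB and 0.29 ± 2.26 over the FGF libraries, where FGF replicate 2 held 0 and 2 counts. FGF was thus highest by sums and below SB and TGFb by means, and the groups overlapped. Over the 14 libraries the SD of log2 CPM was 1.61 for miR-16-5p and 1.41 for miR-103a-3p, at places 35 and 24 from the steadiest of the 47 tested miRNAs, whose median SD was 1.41. Of the 10 listed reference miRNAs 8 were tested, and miR-320a-3p (SD 0.47) and miR-423-5p (SD 0.55) stood at places 1 and 2. Part of each SD is counting error, which is larger for lower counts. A count of 0 lies at a floor of 9.68 log2 CPM, where miR-16-5p stood in FGF replicate 2 and miR-103a-3p in SB replicates 1 and 2. miR-320a-3p and miR-423-5p had a count in all 14 libraries. The places thus rest in part on zeros in shallow libraries and do not rank steadiness apart from depth.

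By root mean square difference of centred log2 CPM over the 14 libraries, the tested miRNAs most like miR-16-5p were miR-10a-5p (1.26), miR-320c (1.34) and miR-26a-5p (1.35), where the median miRNA stood at 1.83. Those most like miR-103a-3p were miR-93-5p (0.65), miR-25-3p (0.88) and miR-26a-5p (1.11), against a median of 1.76. miR-93-5p and miR-25-3p come from 1 cluster, miR-106b to miR-25, and all these values share the libraries' depths.

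The authors' adjusted table changed miR-16-5p by replicate number. In number 4 the adjusted values were 0.359 to 0.444 of the raw counts (138 raw and 53 adjusted in sum). In number 1 they were 1.44 to 2.05 times the raw counts, and in number 3 they were 1.00 to 1.29 times. miR-103a-3p was changed in the same sense in numbers 1 (2.27 to 3.00 times) and 4 (0.545 to 0.636). Within each group, the library with the highest share of miR-16-5p, replicate 4, was the one lowered most. In limma on the adjusted table, the log2 fold change of miR-16-5p was 1.61 (SE 0.71, limma adjusted p = 0.201) in SB and 1.23 (SE 0.76, limma adjusted p = 0.293) in FGF against NT.

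**Figure D5:**
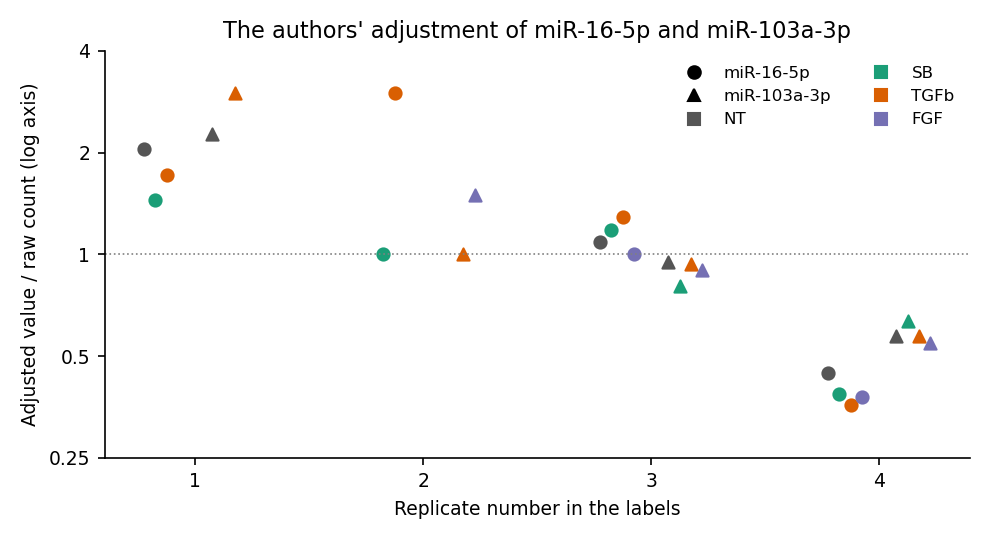
Ratio of the authors' adjusted value to the raw count (vertical log axis) of miR-16-5p (circles) and miR-103a-3p (triangles) against replicate number, coloured by group, for libraries with a count. All libraries numbered 4 lie below 1 and those numbered 1 above it.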

How the data were processed

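Per the labels, the miRNeasy Micro kit served for RNA extraction from vesicles and the QIAseq miRNA kit for libraries. The aligner, the miRNA annotation and any use of molecular identifiers are not given in the sources used here; the submitters' processing notes name GRCh38. The deposited raw table gives whole-number counts. The authors' adjusted values, treated as a score, are whole numbers made by a step that is not stated; 2 lines of that table that name no miRNA and 14 CPM columns were not used.

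Raw counts were tested with edgeR 4.0.16 (robust quasi-likelihood fit, TMM, filterByExpr with a minimum count of 10) in 1 fit of 14 libraries, with Benjamini-Hochberg adjustment over all tested miRNAs and a threshold of 0.05. Ratios within libraries used a pseudocount of 0.5. Their differences between groups were tested by exact permutation, and within replicate numbers by sign-flip permutation. log2 CPM had a prior count of 2. Code was checked on simulated data. Alternatives were RLE factors, library size, DESeq2 1.42.0, no filter, the replicate block, limma 3.58.1 on log2 adjusted values, only the groups compared, a pseudocount of 1, and each library left out. Libraries of at least 500 counts and the log10 total as covariate were added after the data were seen.

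Members and lists were chosen with earlier results of these data known. Besides the members, the text names their hairpins' other arms, related miRNAs, listed reference and marker miRNAs, and the 3 tested miRNAs nearest in profile to miR-16-5p and to miR-103a-3p. Replicate numbers come from the labels. Same-numbered libraries deviated together from their group means (mean correlation 0.307, above 0.1 in 15 of 18 pairs). In edgeR the common coefficient of variation between libraries was 0.778 without the replicate block and 0.573 with it. Same-numbered libraries thus share variation that the main fit leaves in its spread. The main fit left the numbers out, as 3 pairs were at or below 0.1, so its SEs and p-values are not those of a paired design. The fit with the block takes up the shared variation, and its values are given beside the main ones as an alternative. Depth was 115 to 14862 counts, and intervals are 95% Wilson intervals.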

Additional observations from a re-analysis of the deposited data

Results flagged for a closer look

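In the groups of 4 libraries, a gap test for a library that stood apart was applied to 12 sets of values, and 2 met it, both for miR-424-5p, a relative of the members. Chance marks about 1 in 20 such sets where values are continuous. A set with a count in only 1 library meets the test whatever that count is, as both sets here did, so that rate does not apply to them. In SB the share of miR-424-5p was 0.0784% in replicate 3 (3 counts) and 0 in the other libraries. In TGFb it was 0.0361% in replicate 4 (1 count) and 0 in the others. Each rests on 3 counts or fewer.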

How the results depend on the processing

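No alternative called a member: the count of called members was 0 in each comparison under every setting run. Among all tested miRNAs, many of these fits also called 0, and the most called was 9 of 53 (SB against NT without NT replicate 4). The adjusted table called 5 of 47 over the 4 groups. Where 0 were called in all, the 0 for members is not particular to them. The replicate block changed no call of a member. It raised the log2 fold change of miR-16-5p to 1.88 in SB and 1.83 in FGF against NT. It turned the sign of FGF against SB for miR-16-5p (−0.050) and of TGFb against NT for miR-103a-3p (−0.091). Within replicate numbers, the log2 ratio of miR-16-5p to its partners was 0.48 in SB and 1.30 in FGF against NT, the reverse of the unblocked sign, with an exact permutation p of 0.5 for both. With 3 and 2 shared numbers the smallest p possible is 0.25 and 0.5, so neither could have passed.

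Other signs that turned belonged to uncalled values, and where no value shows it the cause was not tested. For miR-16-5p these were TGFb against NT with library size only (−0.040) and FGF against SB in the adjusted table (−0.38). For miR-103a-3p the adjusted table gave −0.61, −0.16 and 0.44 for SB against NT, TGFb against NT and TGFb against SB, and no filter gave −0.082, −0.023 and 0.059. Libraries of at least 500 counts gave −0.17 for TGFb against NT and −0.13 for FGF against SB, and the fit of only NT and TGFb gave −0.088. The adjusted table turned the cluster ratio for TGFb against SB (0.16) and TGFb against FGF (0.50).

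With each library left out, miR-16-5p ran from 0.67 to 2.45 (SB against NT), −0.38 to 1.23 (TGFb against NT), 0.92 to 2.61 (FGF against NT), −1.87 to −0.75 (TGFb against SB), −0.20 to 0.58 (FGF against SB) and −1.94 to −0.72 (TGFb against FGF). miR-103a-3p ran from −0.29 to 0.44 (SB against NT), −0.44 to 0.50 (TGFb against NT), 0.40 to 1.04 (FGF against NT), −0.77 to 0.49 (TGFb against SB), 0.18 to 1.19 (FGF against SB) and −1.36 to −0.41 (TGFb against FGF). The cluster ratio ran from −0.84 to 0.48 (SB against NT), −1.09 to 0.19 (TGFb against NT), −1.78 to 1.33 (FGF against NT), −0.95 to 0.16 (TGFb against SB), −1.56 to 1.55 (FGF against SB) and −1.80 to 1.31 (TGFb against FGF). Leaving out FGF replicate 2 or 4 gave both ends in the 3 comparisons with FGF. The log2 ratio of miR-16-5p to its partners within libraries ran from 3.13 to 3.90 under the alternatives. Fits of only TGFb with SB and of only FGF with SB give no value for miR-103a-3p, which fell under their filter, and DESeq2 was not run over the 4 groups. At 115 to 14862 counts a library, partner ratios rest on 0 to 7 counts of miR-15b-5p.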
